A study of Mus musculus with 8 samples.

Results

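The genes described here encode the proteins of the cytosolic ribosome of the mouse. They were taken by name, as protein-coding genes of GENCODE release M21 whose symbol is Rpl or Rps followed by a number, together with Rplp0, Rplp1, Rplp2 and Rpsa, and without the Rps6k kinases and the pseudogenes. Of 80 such genes, 78 were among the 25367 genes of the deposited table, 47 of the large (Rpl) and 31 of the small (Rps) subunit, and Rpl3l and Rpl10l were not analysed here. All 78 had at least 10 counts in at least 4 libraries and passed the filter on low counts used for testing. The filter on counts thus removed none of the genes taken by name, and the choice was made with earlier results of these data known. The name rule leaves out some genes that also encode ribosomal proteins, Rps3a1 and Fau among them, and these are given with the other genes of the pathway.

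A cytosolic ribosome joins a small subunit, which binds the mRNA and reads its codons, to a large subunit, which forms the peptide bond and passes the chain out through an exit tunnel. Cells make the ribosomal proteins in nearly equal numbers, and their mRNAs are short, abundant and mostly begin with a 5′ terminal oligopyrimidine (TOP) tract, a C followed by a run of pyrimidines, through which mTOR and LARP1 control their translation. In lymphocytes the synthesis of ribosomes rises when cytokines or antigens drive growth, with MYC as one of its known transcriptional activators.

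The cells were group 2 innate lymphoid cells (ILC2s) sorted from the large intestine of wild-type C57BL/6 mice, labelled as colon and immune cell. All libraries came from cells cultured in complete IMDM medium with the cytokines IL-33, IL-25, IL-7 and IL-2 (10 ng/mL of each) over 5 days. The cells then received vehicle, labelled Control, or SC-57461A for 16 hours, with 4 libraries per treatment and no untreated cells among the samples used here. SC-57461A blocks leukotriene A4 hydrolase, by which cells form leukotriene B4. The comparison asks which transcripts differ in cells that received the inhibitor. The labels do not say whether replicates are separate animals or cultures, and p-values reflect the spread among these libraries alone, and that spread may be technical.

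Total counts were 47376196 to 71155654 per library. All 14 listed ILC2 genes were in the table, and together they had 19070 to 22239 CPM (counts scaled to a common library total). The 8 libraries formed 2 sets that cross the treatments, read from the summed FPKM of all genes other than ribosomal protein genes and pseudogenes. Set A consists of replicates 1 and 2 of vehicle with replicates 2 and 3 of SC-57461A. Set B consists of replicates 3 and 4 of vehicle with replicates 1 and 4 of SC-57461A. Summed markers of macrophages and monocytes, neutrophils, fibroblasts and T cells were higher in every set A library than in any set B library. The sums of endothelial, epithelial, and B and plasma cell markers overlapped between the sets. Those of B and plasma cells were 14.7 to 17.8 CPM in set A and 14.6 to 17.6 CPM in set B. Of the 8 endothelial markers, 6 were nevertheless at 0 in every set B library. The 10 macrophage and monocyte markers summed to 26.2 to 47.2 CPM in set A and to 6.28 to 8.26 CPM in set B, where 5 of them were at 0 in every library. The 8 epithelial markers summed to 36.6 to 45.4 CPM in set A with SC-57461A, to 14.4 to 23.8 CPM in set A with vehicle and to 9.31 to 16.5 CPM in set B, where 4 were at 0. Their part in the results below was not tested. These are bulk libraries, so fewer cells of a type and less RNA per cell cannot be told apart.

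The RefSeq starts (GRCm38.p6) of 58 of the 78 genes could be matched by symbol, with 69 start windows in all. A start at C with at least 4 further pyrimidines was found on the transcribed strand in 13 of the 69 windows (18.8%), against 2.51% of all 32851 windows. The median log2 fold change of the 13 genes with such a window was 0.28 and that of the other 45 matched genes 0.23, in the comparison of treatments described below. The windows shown run from 15 bases before the annotated start to 15 bases from it. Capitals mark the pyrimidine run that begins at the start. They are shown because genes with the run differed widely in how far the library sets described above stood apart: set A minus set B was 0.50 on the log2 scale for Rps6 and 2.02, 2.05 and 2.32 for Rpl38, Rps27 and Rps21.
Rps6, chr4:86857353-86857382, minus strand: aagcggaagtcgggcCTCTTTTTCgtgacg
Rpl38, chr11:114668565-114668594, plus strand: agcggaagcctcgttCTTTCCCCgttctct
Rps27, chr3:90213634-90213663, minus strand: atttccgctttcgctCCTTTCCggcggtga
Rps21, first of 2 starts, chr2:180257364-180257393, plus strand: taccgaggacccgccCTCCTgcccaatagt
Windows of Rps28, whose set difference of 2.54 was the largest of all 78 genes, and of Rpl4, with one of 0.04, had no run of that length at the annotated start.
Rps28, chr17:33824548-33824577, minus strand: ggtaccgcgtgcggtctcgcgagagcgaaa
Rpl4, chr9:64173372-64173401, plus strand: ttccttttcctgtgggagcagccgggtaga
A match describes the letters at an annotated start only, and a window without one says nothing about the start used in these cells.

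The 78 genes together took 3.91% to 8.53% of all counts in a library. The share was 6.58%, 6.66%, 4.46% and 3.91% in vehicle replicates 1 to 4 and 4.06%, 7.28%, 8.53% and 4.47% in SC-57461A replicates 1 to 4. The lowest library of set A stood above the highest of set B, while the treatments overlapped. By treatment the share was 5.40% ± 1.43 with vehicle and 6.08% ± 2.17 with SC-57461A (SD, n = 4). By set, with both treatments pooled, set A had 7.26% ± 0.901 and set B 4.22% ± 0.285 (SD, n = 4). Genes outside the group whose longest transcript is under 1000 bases moved with the share: they took 8.14% ± 0.566 in set A but 4.79% ± 0.456 in set B (SD, n = 4).

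**Figure D1:**
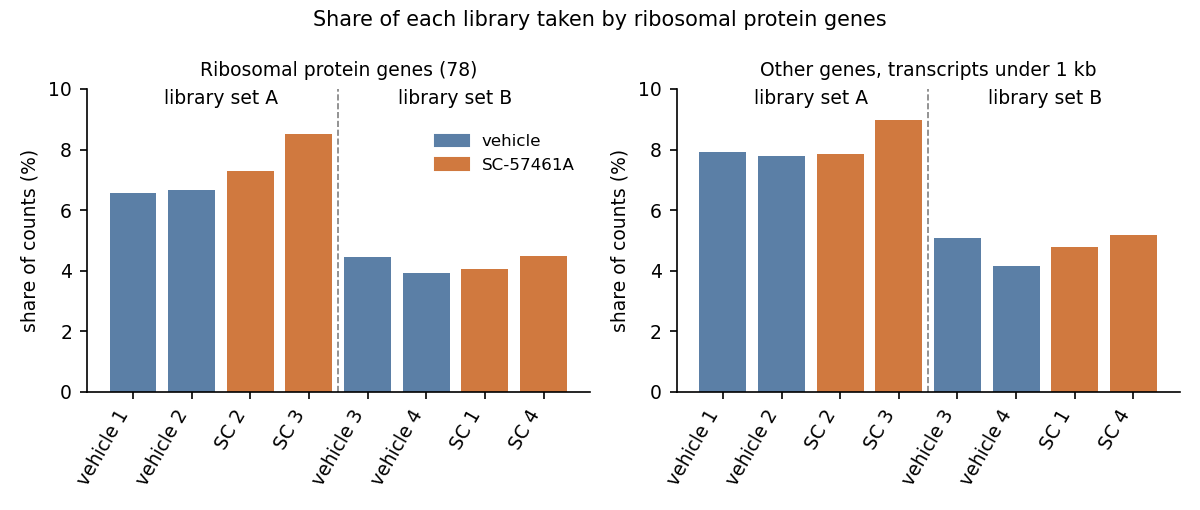
Share of all counts (%, vertical axis) in each of the 8 libraries taken by the 78 ribosomal protein genes (left) and by other genes with transcripts under 1 kb (right); each bar is 1 library, blue for vehicle and orange for SC-57461A, with set A left and set B right of the dashed line. Ribosomal protein genes take 6.58% to 8.53% in set A, against 3.91% to 4.47% in set B, and SC-57461A replicate 3 is highest in both panels.

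Over all 8 libraries no ribosomal protein gene passed the test between SC-57461A and vehicle. By the quasi-likelihood test of edgeR, 0 of 78 were higher, beside 0.272% of the 15095 genes tested, and 0 were lower, beside 0.0596%. None reached an unadjusted p under 0.05, which 6.68% of all genes did, and the smallest adjusted p was 0.874, that of Rpl5. DESeq2 called 0 of them higher, beside 1.06% of genes, and 0 lower, beside 0.625%. For 0 of 78 genes did all SC-57461A libraries lie above all vehicle libraries, beside 3.01% of all genes, and for 0 did they lie below, beside 3.13%.

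The fitted log2 fold changes were nevertheless positive for 76 of the 78 genes, beside 51.6% of all genes, with a median of 0.24, quartiles of 0.18 and 0.32 and a range of −0.09 (Rpl7a) to 0.94 (Rpl39l). The median of all genes was 0.01. SC-57461A replicate 3 was the highest of the 8 libraries for 76 of the 78 genes, beside 22.1% of all genes. Without it 22 of 78 were positive, beside 46.8% of all genes, and the median was −0.04. Vehicle replicate 4 was the lowest library for 61 genes, beside 18.9% of all genes, and without it the median was 0.07, with 68 of 78 positive, beside 49.9%. Leaving out 1 library also upsets the balance of the sets: without SC-57461A replicate 3, that treatment has 1 set A and 2 set B libraries against 2 and 2 of vehicle. The set and the library cannot be told apart in these values, nor in those without that library given for groups of members below. Over the 8 fits that each leave out 1 library the median ran from −0.04 to 0.43, and with library set as a term from 0.11 (without SC-57461A replicate 3) to 0.27. Scaling by library totals in place of TMM factors gave a median of 0.21.

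**Figure D2:**
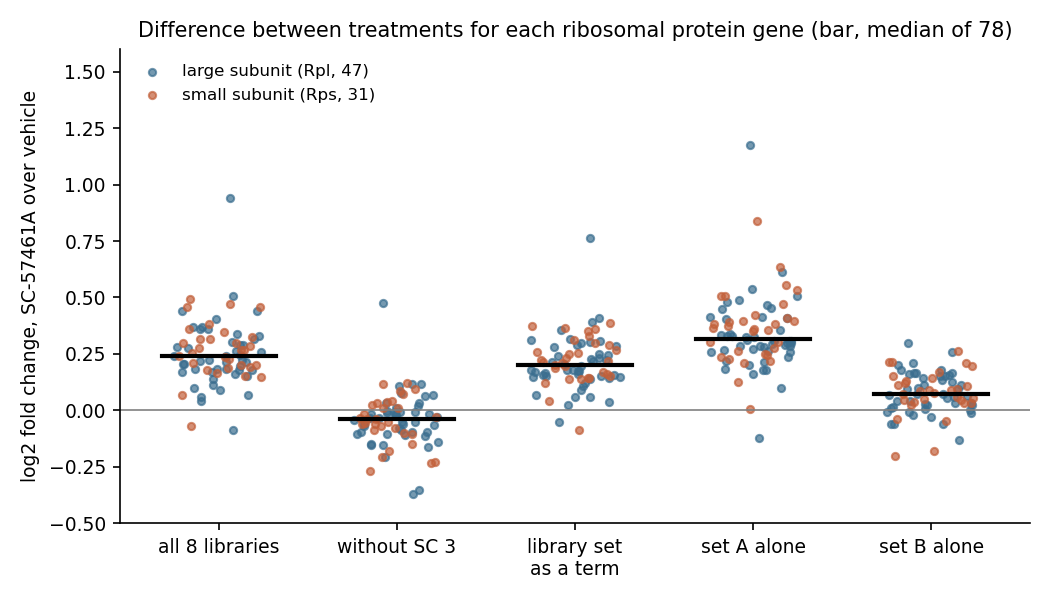
Log2 fold change of SC-57461A over vehicle (vertical axis) for each of the 78 genes in 5 fits (horizontal axis); each point is a gene, blue for the large and orange for the small subunit, and black bars are medians. The median is 0.24 with all 8 libraries, −0.04 without SC-57461A replicate 3, 0.20 with library set as a term, 0.32 in set A alone and 0.07 in set B alone.

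Among large subunit proteins, the longest coding sequences gave the steadiest values. Rpl3, which lies near the peptidyl transferase centre, had 1025, 1102, 1143 and 1183 CPM (scaled by TMM factors, as are all CPM that follow) in vehicle replicates 1 to 4 and 1099, 1104, 1300.3 and 1135 CPM in SC-57461A replicates 1 to 4. Rpl4, which lines the exit tunnel, had 1509, 1601, 1567 and 1561 CPM with vehicle and 1498, 1538, 1777 and 1597 CPM with SC-57461A. Both groups overlapped for both genes, and in both SC-57461A replicate 3 alone stood above the other 7 libraries. Their log2 fold changes were 0.06 ± 0.10 and 0.04 ± 0.09 (SE, n = 4 against 4), each with an adjusted p of 0.999 (edgeR).

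Rpl5 and Rpl11 carry the 5S rRNA into the ribosome and, when free, bind MDM2. Rpl5 had 836, 863, 865 and 809 CPM with vehicle and 861, 895, 1132 and 929.5 CPM with SC-57461A, so that 3 SC-57461A libraries stood above all vehicle libraries and 1 did not. Its log2 fold change was 0.18 ± 0.11 (SE, n = 4 against 4; adjusted p = 0.874, edgeR). Rpl11 had 838, 852, 524 and 455 CPM with vehicle and 487, 910.3, 1175 and 523 CPM with SC-57461A. The 4 set A libraries of Rpl11 stood above the 4 of set B in both treatments, whereas Rpl5 showed no such order. Rpl10, which completes the large subunit and allows it to join the small one, had 1045 to 1469 CPM with vehicle and 1069.6 to 1914 CPM with SC-57461A, and a log2 fold change of 0.17 ± 0.21 (SE; adjusted p = 0.999, edgeR).

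Rplp0, the base of the stalk that recruits elongation factors, was among the most abundant members, at 2291, 2445, 2086 and 1995 CPM with vehicle and 1992, 2687, 3124 and 2119 CPM with SC-57461A. Rplp1, which binds to it, had 1161, 1171, 551 and 424 CPM with vehicle and 452, 1278, 1550.5 and 576 CPM with SC-57461A. The 2 stalk genes thus differed in how far the sets stood apart, with a set A minus set B difference of 0.36 for Rplp0 and 1.37 for Rplp1 on the log2 scale. Of the 4 stalk genes (with Rplp2 and Rpl12), 0 were called between the treatments and the median log2 fold change was 0.18.

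Several small large subunit proteins differed widely between libraries. Rpl38, whose loss changes skeletal patterning in mice, had 277, 257, 82.6 and 58.3 CPM with vehicle and 75.9, 334, 409 and 98.1 CPM with SC-57461A. Rpl39, at the rim of the exit tunnel, had 358, 326, 88.7 and 60.7 CPM with vehicle and 71.3, 396, 511 and 98.4 CPM with SC-57461A. In both genes every set A library exceeded every set B library by more than the treatments differed within a set. Rpl41, a peptide at the interface of the subunits, had 1744, 1707, 697 and 539 CPM with vehicle and 546, 1980.4, 2419.7 and 784 CPM with SC-57461A. Of the 7 exit tunnel rim genes (Rpl17, Rpl19, Rpl23a, Rpl26, Rpl31, Rpl35 and Rpl39), 0 were called and the median log2 fold change was 0.30, which was −0.08 without SC-57461A replicate 3.

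Rpl22 binds RNA and is needed for the development of alpha-beta T cells. It had 642, 619.6, 195 and 139.8 CPM with vehicle and 168, 661, 847 and 212 CPM with SC-57461A, again in order of set and not of treatment. Rpl13a, known in human monocytes for silencing inflammatory mRNAs when released from the ribosome, had 691 to 1296 CPM with vehicle and 699 to 1684 CPM with SC-57461A (log2 fold change 0.14 ± 0.32, SE; adjusted p = 0.999, edgeR). Rpl37a and Rpl36a gave larger but no firmer differences, with log2 fold changes of 0.51 ± 0.55 and 0.36 ± 0.53 (SE, n = 4 against 4; adjusted p = 0.999 each, edgeR). The 47 large subunit genes had a median log2 fold change of 0.22 and the 31 small subunit genes one of 0.27.

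In the small subunit, Rpsa, a protein of the platform that is also known as a laminin receptor precursor, had the highest CPM of the group. It had 3342, 3334, 2334 and 2417 CPM with vehicle and 2164, 3139, 3552 and 2035 CPM with SC-57461A. Its log2 fold change was −0.07 ± 0.21 (SE, n = 4 against 4; adjusted p = 0.999, edgeR). In that fit Rpsa and Rpl7a were the 2 members with a negative value. That of Rpl7a became positive once its copies, described below, were added. Rps3, a protein at the site of mRNA entry, had 951, 928, 813 and 694 CPM with vehicle and 733, 1021, 1286 and 815 CPM with SC-57461A. Rps4x, encoded on the X chromosome, had 1140.0 to 1341 CPM with vehicle and 1197 to 1717 CPM with SC-57461A.

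Rps6, whose phosphorylation is the classical readout of S6 kinase, had 1594, 1622, 1251 and 1158 CPM with vehicle and 1197, 1666, 2089 and 1299 CPM with SC-57461A. Rps14, a platform protein of the small subunit, had 978, 1035, 642 and 488 CPM with vehicle and 538, 1282, 1832 and 669 CPM with SC-57461A. Both followed the sets, and within set A both SC-57461A libraries lay above both vehicle libraries. Log2 fold changes were 0.15 ± 0.20 for Rps6 (SE; adjusted p = 0.999) and 0.46 ± 0.40 for Rps14 (SE; adjusted p = 0.964), both by edgeR.

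Rps19, the gene most often mutated in human Diamond-Blackfan anaemia, had 548, 414, 211 and 180.3 CPM with vehicle and 202, 615, 638 and 232 CPM with SC-57461A. Of 18 genes known from that anaemia, 0 were called in either direction, and their median log2 fold change of 0.28 became −0.05 without SC-57461A replicate 3. Rps28 and Rps29, of the same disease list, showed wide steps between the sets, that of Rps28 being the widest of the 78 genes. Rps28 had 496, 475, 108 and 78.2 CPM with vehicle and 93.0, 622, 751 and 124 CPM with SC-57461A. Rps29 had 369, 353, 113 and 78.6 CPM with vehicle and 96.8, 482, 560.4 and 126 CPM with SC-57461A. In both genes the lowest set A library was more than 2 times the highest set B library, and the treatments overlapped.

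Rps21 and Rps27, whose start windows are printed above, also fell into the sets. Rps21 had 294, 265, 77.0 and 50.9 CPM with vehicle and 60.2, 356, 462 and 88.3 CPM with SC-57461A. Rps27, which carries a zinc finger, had 358, 270.2, 86.8 and 83.8 CPM with vehicle and 59.6, 334, 424 and 107 CPM with SC-57461A. The levels of Rps27 and Rps29 are uncertain, since copies elsewhere in the genome held 23.7% and 24.1% of the counts of gene and copies together. For Rps21 and Rps27, the lowest set A library was at least 265 CPM and the highest set B library at most 107 CPM. Rps15, near the decoding site of the small subunit head, had 549 to 1684 CPM with vehicle and 568 to 2291 CPM with SC-57461A. Rps9, of the small subunit body, was nearly level between treatments, at 1107 ± 377 CPM with vehicle and 1159.7 ± 466 CPM with SC-57461A (SD, n = 4), with a log2 fold change of 0.07 ± 0.33 (SE; adjusted p = 0.999, edgeR).

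By place in the small subunit, 0 genes of any group were called over all 8 libraries. The median log2 fold change was 0.25 for 4 genes at mRNA entry and decoding (Rps2, Rps3, Rps15 and Rps23), 0.31 for 6 genes of the head and beak, and 0.15 for 5 genes of the body and platform, beside 0.01 for all genes. Without SC-57461A replicate 3 these medians were 0.01, −0.01 and −0.03. The 4 X-linked members (Rps4x, Rpl10, Rpl36a and Rpl39) had a median of 0.26, and −0.02 without that library.

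With library set as a term in the edgeR model standard errors were smaller (0.12 in place of 0.67 for Rpl38), and still 0 of the 78 genes were higher, beside 2.83% of all genes, and 0 lower, beside 2.5%. An unadjusted p under 0.05 was reached by 32 of the 78, beside 22.4% of all genes, and the median log2 fold change was 0.20, which was 0.11 without SC-57461A replicate 3, with 66 of 78 positive, beside 48.8% of all genes. The 4 smallest p-values were those of Rpl38, Rps29, Rpl37a and Rps28. Rpl38 had a log2 fold change of 0.39 ± 0.12 (SE; adjusted p = 0.0807) and Rps29 one of 0.38 ± 0.12 (SE; adjusted p = 0.102). Rpl37a had one of 0.41 ± 0.14 (SE; adjusted p = 0.106) and Rps28 one of 0.36 ± 0.12 (SE; adjusted p = 0.110). DESeq2 with the same term called 7 genes higher, beside 6.04% of genes: these 4 with Rps27l, Rpl23a and Rpl31. Of these 7, Rps29 and Rpl23a have copies with over 20% of the summed counts. The call also depended on vehicle replicate 3: without it edgeR with library set called 16 of 78 higher, beside 3.11% of genes, and without any 1 of the other 7 libraries it called 0.

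Within set A, 77 of the 78 genes had a positive log2 fold change, beside 50.2% of all genes, with a median of 0.32. Both SC-57461A libraries lay above both vehicle libraries for 65 of them, beside 23.6% of all genes. An unadjusted p under 0.05 was reached by 45 genes, beside 14.3%, and 0 were called higher after adjustment, beside 0.49%. Within set B, 65 had a positive value, beside 50.3%, with a median of 0.07, and both SC-57461A libraries lay above both vehicle libraries for 2, beside 23.7%. There, 0 reached an unadjusted p under 0.05, beside 13.7%, and 0 were called higher after adjustment, beside 0.574%. Whether the response differs between the sets was itself tested, as an interaction. The interaction had a median of −0.24 (set B minus set A, log2), 2 of 78 genes with an unadjusted p under 0.05, beside 4.96% of all genes, and 0 after adjustment, beside 0.00662%. The shares of counts taken by the group were 6.62% with vehicle and 7.90% with SC-57461A in set A, and 4.18% and 4.27% in set B. These are means of 2 libraries each, and their difference between the sets was not tested. The epithelial marker sum given above also lay higher with SC-57461A within set A, but its genes differed. With library set as a term 3 of the 6 tested markers were higher (Muc2, Krt19 and Krt8), beside 2.83% of all genes. Of the 6, 4 had a positive value, and Epcam, at −0.25 ± 0.15 (log2, SE), was not called. The part of these markers in the values of the 78 genes was not tested.

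The difference between the library sets was far wider than that between the treatments. For 68 of the 78 genes all set A libraries lay above all set B libraries, beside 23.3% of all genes. The sets were made from the summed FPKM of other genes in these same libraries. The treatments were fixed in advance, so set and treatment differences are not like for like. The set A minus set B difference in mean log2 CPM had a median of 1.08 and ran from −0.37 (Rps27a) to 2.54 (Rps28). The genes kept nearly the same order of this difference in the vehicle and in the SC-57461A libraries, with a Spearman correlation of 0.973 across the 78 genes, which share their libraries and are not independent.

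**Figure D3:**
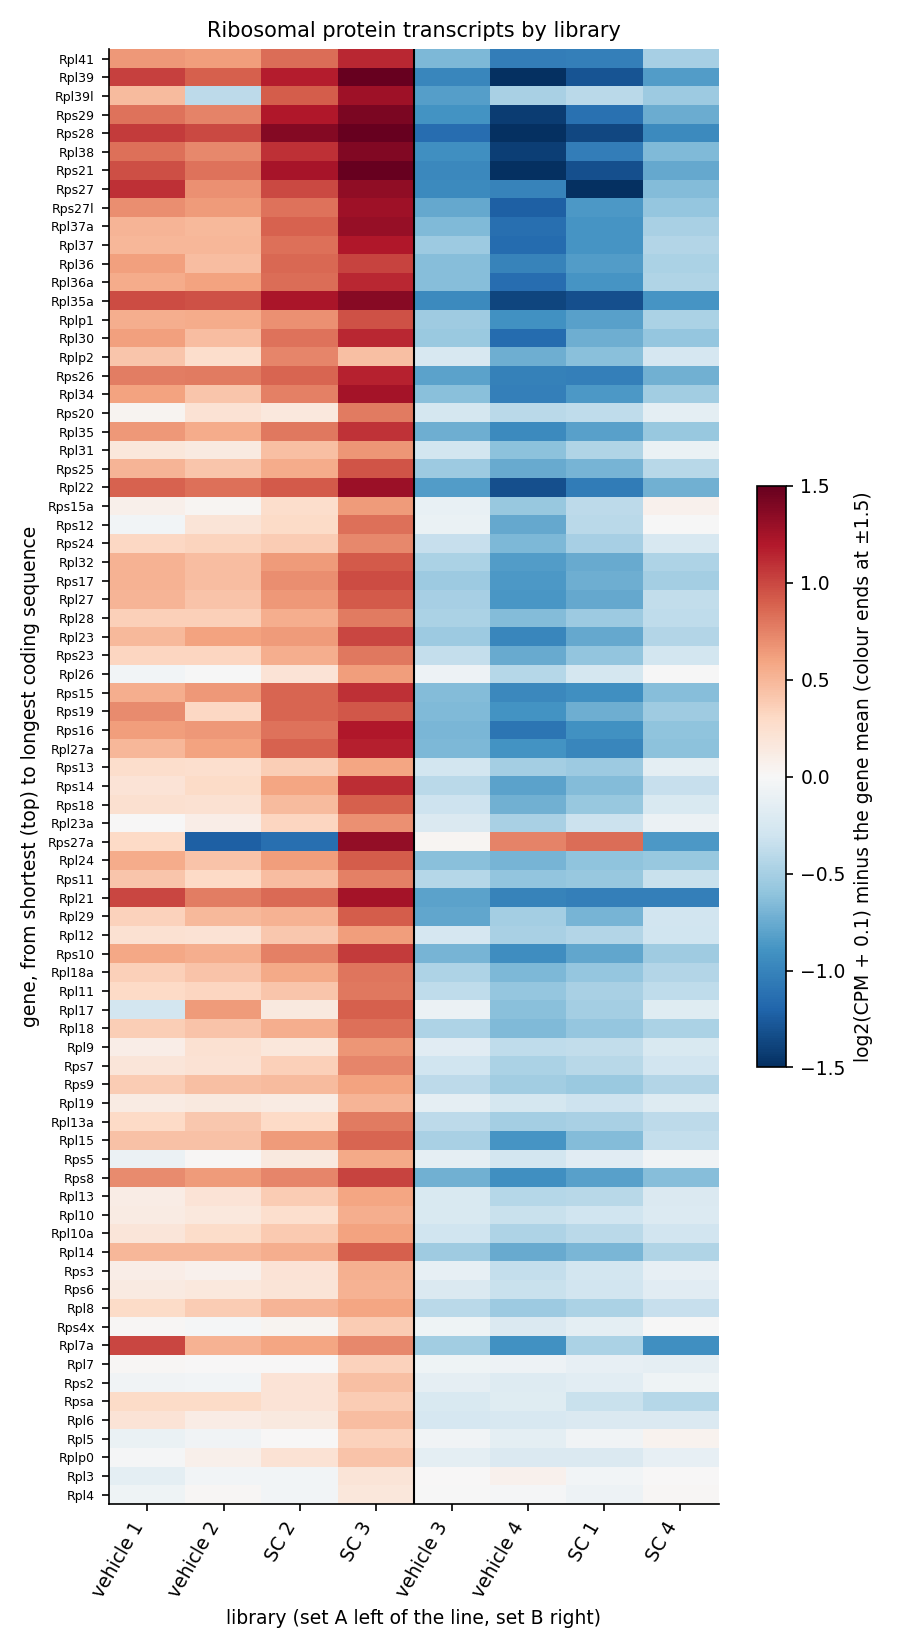
Level of each of the 78 genes (rows, shortest coding sequence at the top) in each library (columns, set A left and set B right of the line), as log2(CPM + 0.1) minus the mean of the gene over the 8 libraries; red is above and blue below that mean. Short genes such as Rps28 and Rpl39 change colour across the line, long ones such as Rpl3 and Rpl4 stay pale, and Rps27a follows neither set nor treatment.

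This difference between sets was larger in genes with shorter coding sequences. Coding lengths ran from 75 bases (Rpl41) to 1257 bases (Rpl4), and across the 78 genes the Spearman correlation of length with the set difference was −0.716, as a description of genes that share libraries. The 18 genes of up to 350 coding bases had a median set difference of 1.67 and the 20 genes of over 350 and up to 450 bases one of 1.26. The 19 genes of over 450 and up to 600 bases had a median of 0.92 and the 21 longer ones one of 0.50. Other protein-coding genes in the same length classes had medians of 0.97, 0.72, 0.50 and −0.09 (460, 455, 756 and 10805 genes), so that they too fell with length and lay lower in each class. Because short transcripts raise the summed FPKM of a library, the measure behind the sets, this relation is not independent of how the sets were made. The last class of other genes holds far longer genes than any ribosomal protein gene. Some members departed from the order: Rpl7a, with 798 coding bases, differed by 1.42 and Rps20, with 357, by 0.60.

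The treatment difference had the same relation to length. Its medians in the 4 length classes, from the shortest, were 0.36, 0.28, 0.21 and 0.17 for the ribosomal protein genes and 0.15, 0.14, 0.10 and −0.02 for other protein-coding genes, as log2 fold changes of all 8 libraries. An offset for the length of the longest annotated transcript of each gene, which is not its coding length, was also fitted. With it the median of the 78 genes was 0.16, and with that offset and library set as a term it was 0.15. In either fit 0 of the 78 were called.

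**Figure D4:**
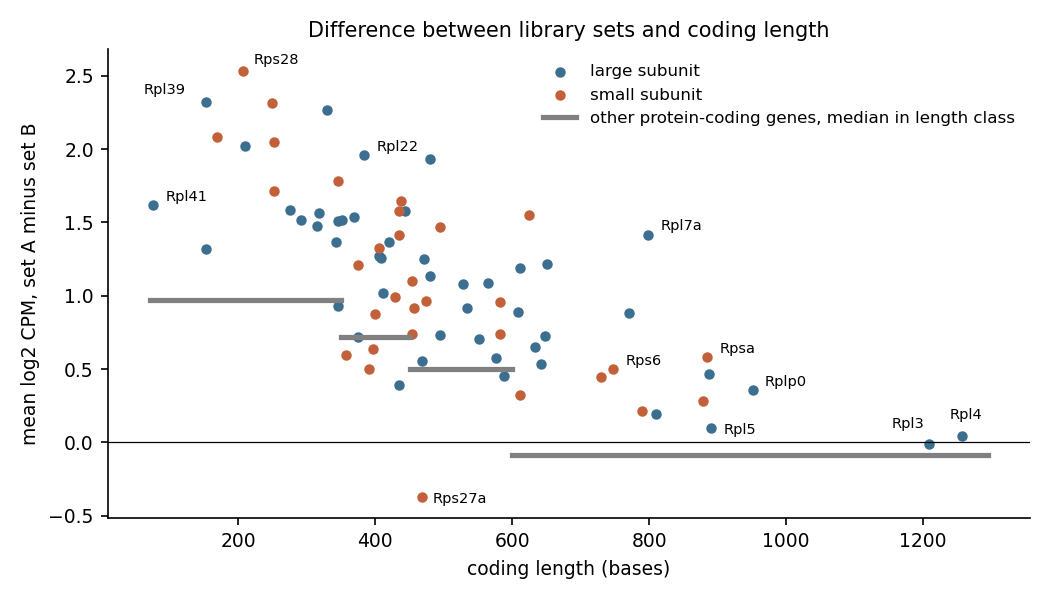
Set A minus set B difference in mean log2 CPM (vertical axis) against coding length in bases (horizontal axis); each point is 1 of the 78 genes, blue for the large and orange for the small subunit, and grey bars are medians of other protein-coding genes in 4 length classes, of which the last also holds genes longer than the axis shows. Points run from 2.54 for Rps28 to −0.37 for Rps27a and fall with length in both subunits.

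Near-identical copies limit what a single row of counts means, since ribosomal protein genes have many processed pseudogenes. Of the 78 genes, 74 had at least 1 other gene at 95% identity over at least 50% of the coding sequence, with a median of 5.5 copies per gene and 58 for Rpl21. Of the copies, 419 were among the genes of the deposited data. They held 84.4% of the summed counts of Rpl21 with its copies, 60.8% of those of Rpl17, 52.1% of those of Rpl7a, and over 20% for 12 of the 78 genes, among them Rps27a (33.1%), Rpl23a (31.8%), Rps29 (24.1%) and Rps27 (23.7%). The values of these 12 genes are uncertain. Rpl21, a large subunit protein, had 321 and 275 CPM with vehicle and 290.2 and 381 CPM with SC-57461A in set A, while no set B library exceeded 91.9 CPM. Rpl7a had 1125, 809.5, 393 and 299 CPM with vehicle and 404, 848, 927 and 296 CPM with SC-57461A. Both followed the sets. The log2 fold change of Rpl7a was −0.09 ± 0.49 alone and 0.14 ± 0.31 summed with its copies (SE, n = 4 against 4), so its sign depended on the copies. Summed with their copies, 0 of 78 genes were called higher, beside 0.277% of genes, and with library set as a term 0 were called, beside 3.07%, with a median log2 fold change of 0.21.

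Rps27a (chr11:29545846-29548109, mm10), which encodes ubiquitin fused to a small subunit protein, varied widely between libraries in the order of neither treatment nor set. Its counts were 11850, 3293, 9143 and 19445 with vehicle and 13887, 3366, 19100 and 4495 with SC-57461A. Those of its pseudogene Rps27a-ps2 (chr9:83409660-83410126) were 5101, 6472, 4292 and 1495 with vehicle and 997, 6730, 4099 and 5830 with SC-57461A. The pseudogene had more counts than the gene in vehicle replicate 2 and in SC-57461A replicates 2 and 4, the 3 libraries in which the gene was lowest. Another copy, Gm8430, had 286 to 1136 counts and was lowest where Rps27a-ps2 was lowest. The division of reads between the gene and its copies was not tested, and the log2 fold change of Rps27a (0.28 ± 0.59, SE; adjusted p = 0.999, edgeR) carries that limit.

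**Figure D5:**
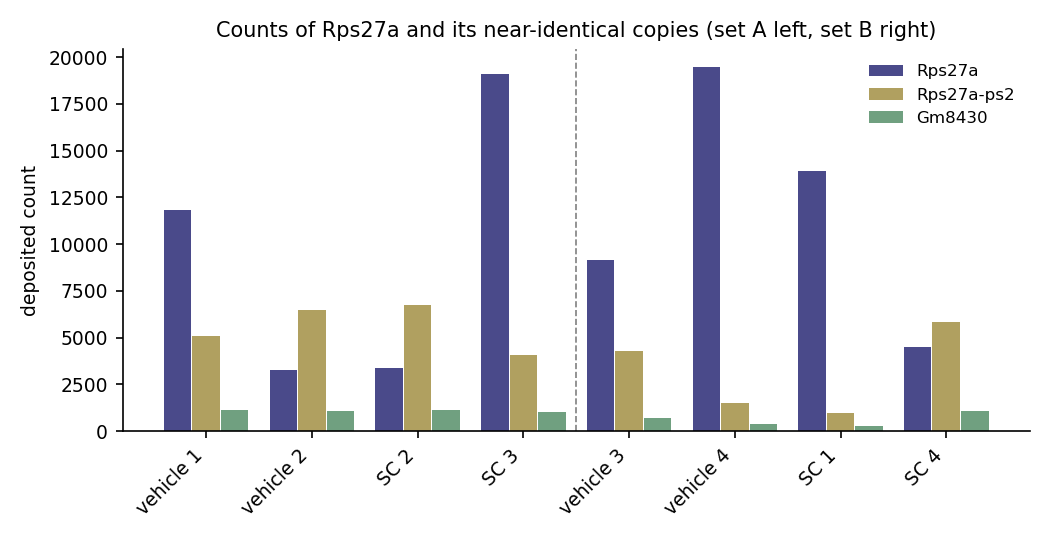
Deposited counts (vertical axis) of Rps27a, Rps27a-ps2 and Gm8430 in each library (horizontal axis, set A left and set B right of the dashed line). Rps27a ranges from 3293 to 19445 counts without regard to set or treatment, and Rps27a-ps2 exceeds it in vehicle 2, SC-57461A 2 and SC-57461A 4.

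Several ribosomal proteins have a second gene for a close relative, and the ratio of the 2 counts within a library does not depend on scaling between libraries. Rpl7l1, a factor of large subunit assembly related to Rpl7, had 12.7%, 14.6%, 11.7% and 12.2% of the counts of Rpl7 in vehicle replicates 1 to 4 and 14.6%, 15.6%, 16.0% and 15.3% in SC-57461A replicates 1 to 4. The treatments did not overlap, although vehicle replicate 2 and SC-57461A replicate 1 lay close together. The difference in log2 ratio was 0.27, with an exact two-sided permutation p of 0.0286, the smallest that 4 against 4 libraries can give, and an adjusted p of 0.143 over the 5 pairs tested. Within set A the difference was 0.21 and within set B 0.33.

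None of the 5 pairs passed after adjustment, and a pair that reached the smallest p alone could not have gone below 0.143. Rps27l, a p53-responsive relative of Rps27, had 57.4% ± 9.76 of the counts of Rps27 with vehicle and 68.4% ± 18.4 with SC-57461A (SD, n = 4; adjusted p = 0.571, exact permutation test). Rpl22l1 had 8.43% ± 0.596 and 8.71% ± 0.938 of the counts of Rpl22 (SD, n = 4; adjusted p = 0.657, exact permutation test). Rpl36al had 102% ± 19.6 and 90.9% ± 17.3 of the counts of Rpl36a (SD, n = 4; adjusted p = 0.571, exact permutation test). Rpl22l1 and Rpl36al followed the sets instead, at 8.67% to 9.82% against 7.74% to 8.15% for Rpl22l1 and at 76.2% to 85.7% against 101% to 125% for Rpl36al, in set A and set B. Rps4l had 0.868% ± 0.137 of the counts of Rps4x with vehicle and 1.04% ± 0.104 with SC-57461A (SD, n = 4; adjusted p = 0.286, exact permutation test). Rpl39l, which in mice is known for a ribosome of the testis, had 8 to 45 counts per library against 3534 to 24909 for Rpl39 and was not tested as a ratio.

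Ordered by the FPKM of the authors, which is a level per gene length, Rps26 stood first. Rps26, a protein at the mRNA exit, had 2791 ± 1569 FPKM with vehicle and 3122 ± 1961 FPKM with SC-57461A (SD, n = 4). Rps15 followed at 1554 ± 739 and 1859.6 ± 1095 FPKM, and Rplp1 at 1464 ± 628 and 1663 ± 833 FPKM, neither apart from the other beyond the spread. At the other end Rpl39l had 0.265 ± 0.152 and 0.504 ± 0.341 FPKM, below 1 FPKM in both treatments, and Rpl21 had 49.1 ± 29.6 and 51.6 ± 35.8 FPKM. Rps20 was next, at 56.6 ± 8.16 and 65.5 ± 20.3 FPKM. The median of the 78 genes over all libraries was 350.2 FPKM, and 30 of them were among the 100 and 72 among the 500 genes with the highest mean FPKM. The gene lengths implied by the deposited counts and FPKM ran from 289 to 7088 bases, the longest far above any coding length here, so this order depends on the length used. Per kilobase of coding sequence the order correlated with that of FPKM at a Spearman value of 0.622 over 78 genes.

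Other genes of the pathway were read from lists of genes of ribosome assembly, translation and growth control. Over all 8 libraries 0 genes of any of these lists were called by edgeR. With library set as a term, 4 of 40 ribosome assembly genes were higher and 0 lower, beside 2.83% and 2.5% of all genes. These were Pes1 and Wdr12, partners in the PeBoW complex of large subunit maturation, Nle1 and Nip7. Wdr12 had 24.9, 26.4, 28.1 and 26.8 CPM with vehicle and 33.8, 33.1, 32.4 and 35.2 CPM with SC-57461A, so the treatments did not overlap. Its log2 fold change was 0.34 ± 0.07 (SE; adjusted p = 0.0143, edgeR with library set; 0.287 without). Of the 40 genes 36 had a positive value in that fit, beside 50.8% of all genes, with a median of 0.17, which was 0.12 with the same term and without SC-57461A replicate 3.

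Myc, which activates genes of ribosome synthesis, had 118, 119, 98.2 and 133 CPM with vehicle and 183, 197, 162 and 164 CPM with SC-57461A, without overlap. With library set as a term its log2 fold change was 0.59 ± 0.10 (SE; adjusted p = 0.00582, edgeR), and without that term the adjusted p was 0.171. In that fit 2.83% of all genes were higher and 2.5% lower. In the growth control list of 20 genes Myc was the one called higher and Sesn3, a sestrin that restrains mTORC1, the one called lower, at −0.34 ± 0.08 (SE; adjusted p = 0.0326, edgeR with library set). Of 31 initiation factor genes 3 were higher and 0 lower in that fit: Eif1, Eif1a and Eif4ebp1, of which the last encodes an inhibitor of cap-dependent initiation. Eif1, which helps choose the start codon, had 349.7 to 418 CPM with vehicle and 479.6 to 508 CPM with SC-57461A.

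Of 7 further genes outside the name rule, of ribosomal proteins and their relatives, 2 were higher in the fit with library set, beside 2.83% of all genes. They were Rpl7l1, the assembly factor named above, at 0.33 ± 0.08 (SE; adjusted p = 0.0459, edgeR), and Rps4l at 0.41 ± 0.10 (SE; adjusted p = 0.0460, edgeR). The symbol of Rps4l matches the rule, but it was not among the protein-coding genes of GENCODE M21. Rps3a1 was not called, at 1110.6 ± 75.2 CPM with vehicle and 1208 ± 183 CPM with SC-57461A (SD, n = 4). Of 77 mitochondrial ribosomal protein genes 4 were higher and 0 lower, beside 2.83% and 2.5% of all genes, and 75 had a positive value, beside 50.8%, with a median of 0.18, which was 0.11 in that fit without SC-57461A replicate 3. Of 17 further translation-related genes with TOP mRNAs, 0 were called in that fit, 11 had a positive value and the median was 0.06. Rack1 and Tpt1, named for the smallest p over all 8 libraries, lay above that median at 0.22 and 0.23. Of 15 genes of RNA polymerase I and its factors 0 were called, with a median of 0.13, and of 6 tested host genes of small nucleolar RNAs 1 was higher, Snhg15, beside the same 2.83%.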

How the data were processed

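RNA-seq counts and FPKM values of 8 mouse ILC2 libraries were analysed, 4 of vehicle-treated and 4 of SC-57461A-treated cells. Per the file headers, the deposited table holds raw counts per gene and library, and FPKM (fragments per gene length and library size), computed by the authors. Per the submitters' processing notes, cutadapt 4.7 and FastQC were used and the build was mm10. How reads were aligned and counted, with what strand setting and which annotation, was not given in the sources used here. Of the value columns, 0 were left unmatched to a sample. Symbols and coding lengths came from GENCODE M21, and start windows from RefSeq (GRCm38.p6).

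The filter filterByExpr kept 15095 genes, TMM factors set the scale, and edgeR 4.0.16 (quasi-likelihood test, R 4.3.3) gave the tests (two-sided, Benjamini-Hochberg over all genes tested, adjusted p under 0.05). Library sets are the 4 highest and 4 lowest libraries by summed FPKM of genes other than ribosomal protein genes and pseudogenes. Library set entered as a term in alternative fits. Each SE given with an edgeR log2 fold change is its absolute value divided by the square root of the quasi-likelihood F. Alternatives were other scalings and filters, DESeq2 1.42.0, limma 3.58.1 on log2(FPKM + 1) and log2(FPKM + 0.1), the replicate number as a block, each set alone, a length offset, and leaving out each library. Sums with near-identical copies (BLAST 2.17.0, at least 95% identity over 50% of the coding sequence) and the other scalings and length offset with library set were chosen after seeing the data. The models were tested on simulated data.

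The members and all lists were chosen with earlier results of these data known, among them the library sets. Not every gene of these lists is reported here. Members named by rule are those called, the 6 highest and 6 lowest log2 fold changes, the 3 highest and 3 lowest mean FPKM, the 4 smallest p-values with library set, a fixed set of 19 genes and the members of paralog pairs. Of other lists up to 4 genes with the smallest p were named. Rpl23a, Rpl31 and, for its copies, Rpl17 were named after their values were seen. Chi-square divided by its degrees of freedom was 16.8 to 587 over the 28 pairs of libraries, so none was a repeat deposit. Plots used matplotlib 3.10.9; tables used numpy 2.4.6, pandas 2.3.3, scipy 1.17.1 and Python 3.11.15.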

Additional observations from a re-analysis of the deposited data

How the results depend on the processing

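Over all genes the fit without library set called 41 higher and 9 lower. DESeq2 called 148 and 87, and limma on log2(FPKM + 1) with no filter called 24 higher. Leaving out each library in turn gave 25 to 31 higher and 3 to 7 lower; without vehicle replicates 1, 2 and 3 the higher counts were 27, 27 and 25. With library set as a term edgeR called 427 and 377, and DESeq2 753 and 801. Set A alone gave 77 and 21, and set B alone 86 and 16. Added after seeing the data, the term gave 455 and 405 with copies summed, 580 and 415 with the length offset, 420 and 390 with RLE, 375 and 410 with upper-quartile factors, 328 and 397 with library totals, and 405 and 420 with TMM without the members. With the term and each library left out in turn, it called 151 to 483 higher and 89 to 490 lower.

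Of the 78 genes, the 0 calls of edgeR changed under DESeq2 with library set (7 higher) and under edgeR with library set without vehicle replicate 3 (16 higher), and in no other alternative run. Among the other leave-one-out fits with the term the count was 0. The members' median stayed positive in all alternatives run except without SC-57461A replicate 3 and without the term (−0.04), between 0.07 and 0.43 elsewhere.

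With the replicate number as a block edgeR called 14 genes higher and 1 lower and 0 of the 78, with a median of 0.20 for the 78. Same-numbered libraries correlated at −0.587, 0.635, −0.561 and 0.608 in their deviations from the treatment means. The values were positive for libraries of the same set and negative for libraries of different sets. Library set was not removed from the deviations, so they cannot show whether the numbers pair the samples. With the replicate block the Rpl7l1 to Rpl7 ratio differed by 0.27 (p = 0.125, adjusted p = 0.313, exact sign-flip permutation). A p of 0.125 is the smallest that sign flips of so few replicate numbers can give. The sign-flip test therefore could not have passed, and no conclusion is drawn from it.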
